A study of Mustela putorius furo with 10 samples.

Results

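ZBTB proteins are transcription factors that carry a BTB domain, through which they pair with each other and recruit corepressors and histone deacetylases, and C2H2 zinc fingers, with which they bind DNA. In blood, members of the family direct the choice and upkeep of lymphocyte lineages: BCL6 is needed in germinal centre B cells, and ZBTB7B in helper T cells. Some members, ZBTB4 and ZBTB38 among them, bind methylated DNA. The genes described here are ZBTB1, ZBTB4, ZBTB11, ZBTB20, ZBTB21, ZBTB24, ZBTB25, ZBTB26, ZBTB37 and ZBTB38, listed by symbol with earlier results of these arrays known, and then selected on detection: a gene was kept where the PBMC channel was well above background on at least 4 of 10 arrays. All 10 symbols and all of their 29 target sequences passed, among 32400 of 45328 target sequences on the array that did.

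Peripheral blood mononuclear cells (PBMC) had been isolated on a Ficoll gradient from male ferrets of 3 months of age. The control group (n = 6 arrays) was kept at 22 °C, and the cold group (n = 4 arrays) at 4 °C for 1 week. Each array was hybridised with the PBMC RNA of 1 ferret, labelled with Cy3, and with a Cy5-labelled reference pool common to all arrays, in which RNA of several tissues had been mixed. No genetic change was made in either group, the cold-exposed ferrets were housed individually, and cold and individual housing cannot be told apart where the control animals were housed otherwise. The question was which genes of these blood cells responded to the cold. Values below are log2 ratios of PBMC to reference pool after loess normalisation, and a change is the mean of the cold arrays less that of the control arrays. In bulk RNA of this kind, fewer cells of a type and less RNA per cell cannot be told apart.

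In PBMC of cold-exposed ferrets the ratio was lower for 25 of the 29 ZBTB sequences, and for every sequence of 8 of the 10 genes. The largest differences were those of ZBTB20 and of 1 sequence of ZBTB1, while ZBTB24 stood slightly higher and ZBTB21 and ZBTB38 differed little. Over all 32400 sequences, 52.6% were lower in the cold group. The median change was −0.22 over the ZBTB sequences and −0.01 over all sequences. No ZBTB sequence passed an adjusted p of 0.05 in limma, and neither did any other sequence (0% of 32400, the lowest adjusted p being 0.0569). At an unadjusted limma p of 0.01, the threshold that the methods set for another test, 5 of the 29 sequences were called, all of them lower, which is 17.2%. Over all sequences 8.6% were called, 3.47% lower and 5.13% higher. With the methods' own test per sequence 7 of 29 were called, against 6.45% of all sequences. In Cy3 alone 1 of 29 was called (9.95% of all), within slide position 2 none (1.68% of all), and without control replicate 5 or without cold replicate 2 the count was 8 (12.6% and 12.8% of all). Of the sequences called, 40.3% were lower, a share that was 7.71% within slide position 2, 31.7% without cold replicate 1, 59.4% with the processed intensities of the scanner software, 55.0% in the deposited log2 table and 83.8% with arrays centred on their median, which put the median change of all sequences at −0.43 and that of the ZBTB sequences at −0.66. At an unadjusted p of 0.05, 12 of the 29 were called, against 24.6% of all sequences. The 5 called sequences belong to 2 genes, and sequences of a gene are not independent measurements. The symbols had been listed with results of these arrays known, so that the p-values describe these sequences and are not independent evidence for them.

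**Figure D1:**
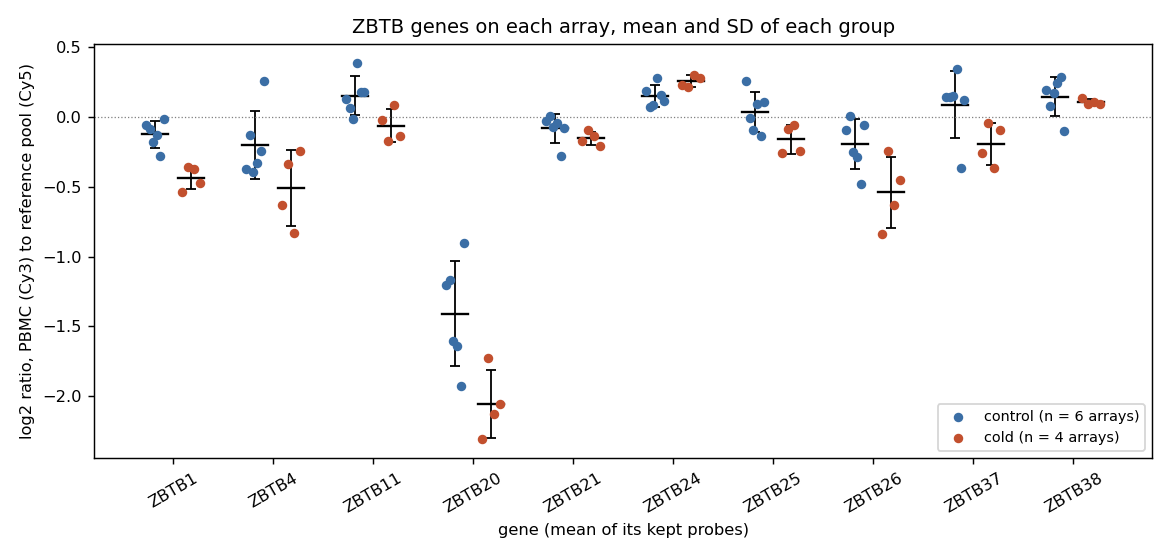
Log2 ratio of PBMC to reference pool (y axis) of the 10 ZBTB genes (x axis), each point being the mean of the kept probes of the gene on 1 array, with control in blue (n = 6), cold in red (n = 4) and black bars for mean and SD. The 4 cold arrays of ZBTB1 lie below all 6 control arrays, those of ZBTB20 overlap with control replicate 5, and ZBTB24 is the one gene with a higher mean in the cold.

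The plot of the genes by array takes each gene as the mean of its kept probes. Limma was run over 26303 features, that is the named genes and each sequence without a symbol on its own. On this scale 2 of the 10 genes were called at 0.01, where 8.64% of all these features were. ZBTB1 changed by −0.31 (SE 0.08, limma p = 0.00205, adjusted p = 0.0772, exact permutation p = 0.00476) and ZBTB20 by −0.65 (SE 0.19, limma p = 0.00634, adjusted p = 0.101, exact permutation p = 0.0238). On the linear scale the cold ratio was 0.807 and 0.638 of the control ratio, respectively. Cy5 of the ZBTB1 sequences was above background on only 2 or 3 of the 6 control arrays, which limits how well their ratio is measured. The mean over all 10 genes, each by 1 sequence, ranged from −0.31 to −0.05 on the control arrays and from −0.47 to −0.30 on the cold arrays, and control replicate 5 overlapped with cold replicate 2.

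ZBTB1 is a transcriptional repressor that mice need for the development of T cells and other lymphocytes. It was measured by 3 target sequences with 4 probes each, and every one of the 12 probes was lower in the cold, by −0.64 to −0.10. On the sequence XM_004738923 the control arrays ran from −0.54 to −0.14 with a median of −0.27, and the 4 cold arrays read −0.98, −0.85, −0.80 and −0.87. No cold array reached the lowest control array. The mean was −0.32 ± 0.15 (SD, n = 6) in the control and −0.87 ± 0.08 (SD, n = 4) in the cold group, a change of −0.56 (SE 0.09, limma p = 7.4e-05, exact two-sided permutation p = 0.00476, the smallest that 210 splits of the arrays allow). Its adjusted p of 0.0569 was the lowest of the whole table and was shared by 110 sequences.

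On XM_004738922 the control arrays lay between −0.18 and 0.07 with a median of −0.04, and the cold arrays read −0.40, −0.19, −0.21 and −0.29. The groups did not overlap here either, and the change was −0.22 (SE 0.08, limma p = 0.0168, exact permutation p = 0.00952). On XM_004738921 the control arrays lay between −0.15 and 0.14, and the cold arrays between −0.26 and −0.03, with overlap and a change of −0.15 (SE 0.08, limma p = 0.105, exact permutation p = 0.0619). In the deposited log2 table XM_004738921 had the opposite sign, at 0.0254, and XM_004738922 stood at −0.0453. Within an array, XM_004738923 less XM_004738922 was −0.60 ± 0.04 (SD) in the cold and −0.27 ± 0.15 in the control group, a change of −0.33 (exact permutation p = 0.0143), and its difference to XM_004738921 changed by −0.41 (exact permutation p = 0.00476). Both differences were chosen after the values of the sequences had been seen. They depend on the processing: with the processed intensities of the scanner software the changes of the 3 sequences lay closer together, at −0.75 (XM_004738923), −0.72 (XM_004738922) and −0.53 (XM_004738921). With median-centred arrays they stayed apart, at −0.73, −0.37 and −0.31 in the same order. They did so in the deposited table too, where XM_004738923 was at −0.40.

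ZBTB20 is known for its part in plasma cell survival and for repression of fetal genes in the liver. It was measured by 8 target sequences, the most of any of the 10 genes, and the ratio lay below 0 on all 10 arrays for each of them. All 32 probes were lower in the cold, by −1.08 to −0.32, and the changes of the 8 sequences ran from −0.83 to −0.52. On XM_004761402, with the largest change, the control arrays ran from −1.73 to −0.75 with a median of −1.14, and the cold arrays read −2.29, −1.92, −1.94 and −2.11. The groups did not overlap, and the change was −0.83 (SE 0.19, limma p = 0.0012, exact permutation p = 0.00952), which makes the cold ratio 0.562 of the control ratio.

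On XM_004761400 the control arrays ran from −1.78 to −1.004 with a median of −1.32, and the cold arrays read −2.40, −2.06, −2.06 and −1.90. The change was −0.73 (SE 0.15, limma p = 0.000472, adjusted p = 0.0687, exact permutation p = 0.00952), again without overlap. XM_004761404 (−0.69, SE 0.18, limma p = 0.00217, exact permutation p = 0.00952) was without overlap too, and XM_004761401 (−0.64, SE 0.17, limma p = 0.00281, exact permutation p = 0.0143) was called with 1 control array inside the cold range. The other 4 sequences changed by −0.61 (XM_004761399), −0.59 (XM_004761398), −0.57 (XM_004761403) and −0.52 (XM_004761408), with limma p-values between 0.0174 and 0.059. In these 4, control replicates 3, 4 and 5 lay below control replicates 1, 2 and 6, and cold replicate 2 read the highest of the cold group. Over the 10 arrays the 8 sequences correlated with each other at r = 0.68 to 0.99 (28 pairs, which share the arrays and the reference pool).

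**Figure D2:**
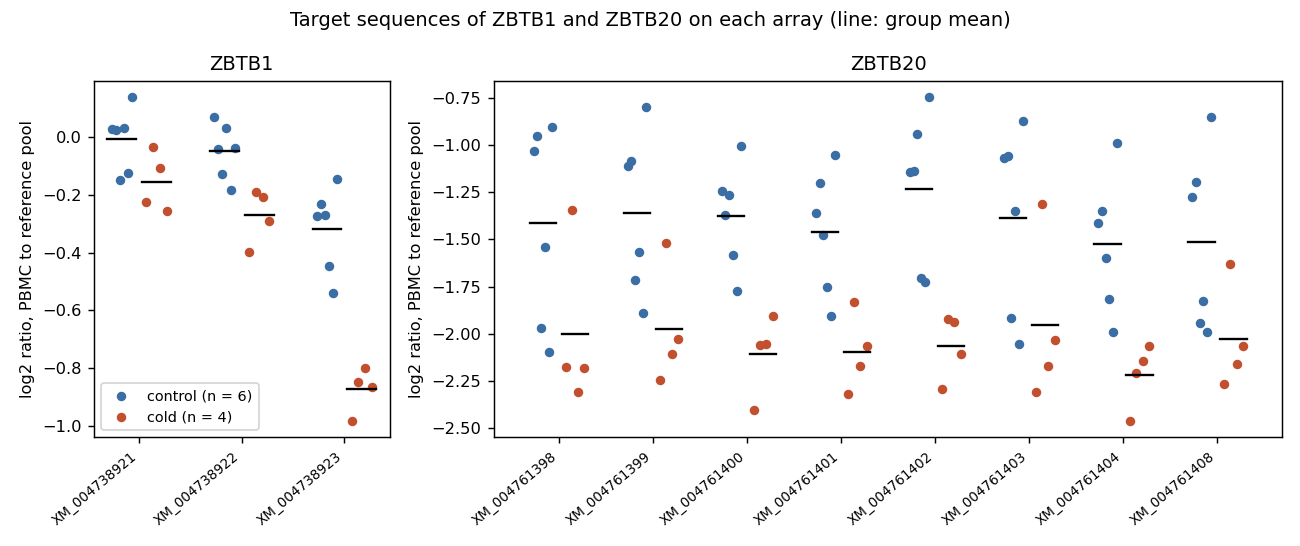
Log2 ratio of PBMC to reference pool (y axis, a scale of its own in each panel) of the 3 target sequences of ZBTB1 and the 8 of ZBTB20 (x axis), 1 point per array, control in blue, cold in red and a line at each group mean. The widest gap between the groups is that of XM_004738923, with a highest cold array of −0.80 and a lowest control array of −0.54, while XM_004761398 overlaps through cold replicate 2 and XM_004761403 through cold replicates 2 and 4.

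In the plot of target sequences, 5 of the 29 ZBTB sequences have cold arrays entirely below the control arrays, 2 of ZBTB1 and 3 of ZBTB20. Over all sequences, 2.15% were without overlap in this direction and 2.94% in the other, in which no ZBTB sequence fell.

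ZBTB4, a repressor that binds methylated CpG, was covered by 1 sequence. The control arrays ran from −0.40 to 0.26 with a median of −0.29, and the cold arrays read −0.63, −0.34, −0.83 and −0.24. The groups overlapped, and the change of −0.31 (SE 0.15, limma p = 0.0672, exact permutation p = 0.11) was not called. It was −0.76 in the deposited table, −1.28 with median-centred arrays and −0.087 without the 2 arrays of brightest Cy5. ZBTB38, also a reader of methylated DNA, differed less. Its 4 sequences changed by −0.10 to 0.05, and the gene by −0.04, with a 95% interval from −0.22 to 0.15. The sequences were at −0.33 to −0.20 in the deposited table. With median-centred arrays they were at −0.70 to −0.60, where the median of all sequences was −0.43. Of its 16 probes 13 were lower and 3 higher.

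ZBTB24, whose loss causes a human immunodeficiency with hypomethylated centromeric repeats, was higher in all 12 probes, by 0.01 to 0.23. The gene read 0.07 to 0.28 on the control arrays, with the cold arrays at 0.23, 0.22, 0.30 and 0.28. The cold values thus lay in or just above the upper part of the control range. The change was 0.11 (SE 0.07, limma p = 0.148, exact permutation p = 0.0476). In the deposited table its 3 sequences changed by 0.52, 0.48 and 0.45, none of them called at 0.01. Cy5 of these sequences was above background on only 1 or 2 of the 6 control arrays. HELLS, a chromatin remodeller that acts in the same disease, had a change of −0.31 (SE 0.16, limma adjusted p = 0.262).

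ZBTB11, a repressor that cells need for mitochondrial function, changed by −0.22 (SE 0.09, limma p = 0.0405, exact permutation p = 0.0333). Its control arrays ran from −0.02 to 0.39 with a median of 0.15, and the cold arrays read −0.02, −0.17, 0.09 and −0.14. All 4 of its probes were lower, and the groups overlapped. With processed intensities the change was −0.45, and within slide position 2 it was −0.11. ZBTB25, known to repress NFAT target genes in T cells, lies next to ZBTB1 and overlaps with it in the RefSeq annotation of the ferret. Its single sequence ran from −0.13 to 0.26 on the control arrays, with a median of 0.04, and read −0.26, −0.08, −0.05 and −0.24 on the cold arrays. The change, which was −0.51 with processed intensities and −0.036 within slide position 2, was −0.20 (SE 0.09, limma p = 0.0584, exact permutation p = 0.0571), with overlap. Whether probes of ZBTB1 and ZBTB25 share transcript sequence was not tested.

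ZBTB26 changed by −0.35 on XM_004757363 (SE 0.13, limma p = 0.0182, exact permutation p = 0.0381) and by −0.34 on XM_004757364 (SE 0.14, limma p = 0.0381, exact permutation p = 0.0762). On the first, the control arrays ran from −0.45 to −0.02 with a median of −0.19, and the cold arrays read −0.90, −0.29, −0.60 and −0.44, with overlap. In the deposited log2 table both sequences had the opposite sign, at 0.13 and 0.0852, and with processed intensities they were at −0.66 and −0.72. Of its 8 probes, 5 were kept. At the edge of the detection threshold, a ZBTB26 probe above background on 5 arrays changed by −0.26, and one that was left out, above background on 3 arrays, by −0.43. ZBTB6, whose gene overlaps with ZBTB26 in the annotation, had a change of −0.22 (SE 0.08, limma adjusted p = 0.135).

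ZBTB37 was detected on the fewest arrays. Of its 8 probes 2 were kept, 1 per sequence, and these were above background on 5 control and 3 cold arrays. The other 27 sequences were so on all 10 arrays. XM_004761938 ran from −0.36 to 0.32 on the control arrays, with a median of 0.20, and read −0.25, −0.01, −0.42 and −0.28 on the cold arrays, a change of −0.36 (SE 0.14, limma p = 0.0256, exact permutation p = 0.0524). XM_004761939 changed by −0.20 (SE 0.14, limma p = 0.176, exact permutation p = 0.21). Both values rest on 1 probe of 4. Without the filter on dim probes they were −0.12 and −0.0444, with processed intensities −1.17 and −0.86, and in the deposited table they had the opposite sign, at 0.37 and 0.44. ZBTB21, a zinc finger repressor, differed little: its 4 sequences changed by −0.14 to −0.01 and the gene by −0.07 (95% interval −0.24 to 0.09), with 10 of 16 probes lower. With median-centred arrays they were at −0.66 to −0.58, where the median of all sequences was −0.43. In the deposited table they were at −0.29 to −0.19. The sequences of ZBTB21 did not move together over the arrays (r = −0.31 to 0.57 over 6 pairs).

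The ratio holds the ferret RNA and the reference pool, and the 2 channels were therefore also set apart, each quantile-normalised on its own, so that their changes do not add up to that of the ratio. In Cy3, which carries the PBMC RNA, 24 of the 29 sequences were lower in the cold, with a median of −0.10 against −0.04 over all sequences. In Cy5, which carries the same pool on every array, 24 were higher, with a median of 0.07 against 0.03. In Cy3, 1 of the 29 ZBTB sequences was called at 0.01, against 9.95% of all sequences, and it was not one of those called in the ratio. XM_004761939 of ZBTB37 changed by −0.28 there (SE 0.09, limma p = 0.00858, exact permutation p = 0.00476).

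The channels differed between ZBTB1 and ZBTB20. For XM_004738923 of ZBTB1, Cy3 ran from 7.77 to 8.67 on the control arrays and from 7.89 to 8.57 on the cold arrays, a change of −0.10 (SE 0.19, limma p = 0.622), whereas Cy5 changed by 0.19 (SE 0.06, exact permutation p = 0.0143). Cy5 of this sequence was above background on 2 of 6 control and 4 of 4 cold arrays. All 12 ZBTB1 probes were higher in Cy5, and their Cy3 changes lay between −0.14 and 0.00. In Cy3 the difference between XM_004738923 and XM_004738922 changed by −0.05 (exact permutation p = 0.786), where it had changed by −0.33 in the ratio.

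For ZBTB20, all 8 sequences and all 32 probes were lower in Cy3. The sequences changed by −0.27 to −0.23 (limma p between 0.0692 and 0.112), and in Cy5 by −0.07 to 0.16, with 5 higher and 3 lower. Cy5 was above background on all 10 arrays for every one of them. The Cy3 change of ZBTB20 was thus smaller than that of the ratio and not called, with the same direction. ZBTB4 (−0.28, exact permutation p = 0.233), ZBTB11 (−0.25, exact permutation p = 0.195) and ZBTB25 (−0.18, exact permutation p = 0.0238) had Cy3 changes close in size to their ratio changes. For ZBTB26 the Cy3 changes were −0.03 and −0.14, and ZBTB24 remained higher in Cy3 in all 3 sequences, by 0.04 to 0.07.

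**Figure D3:**
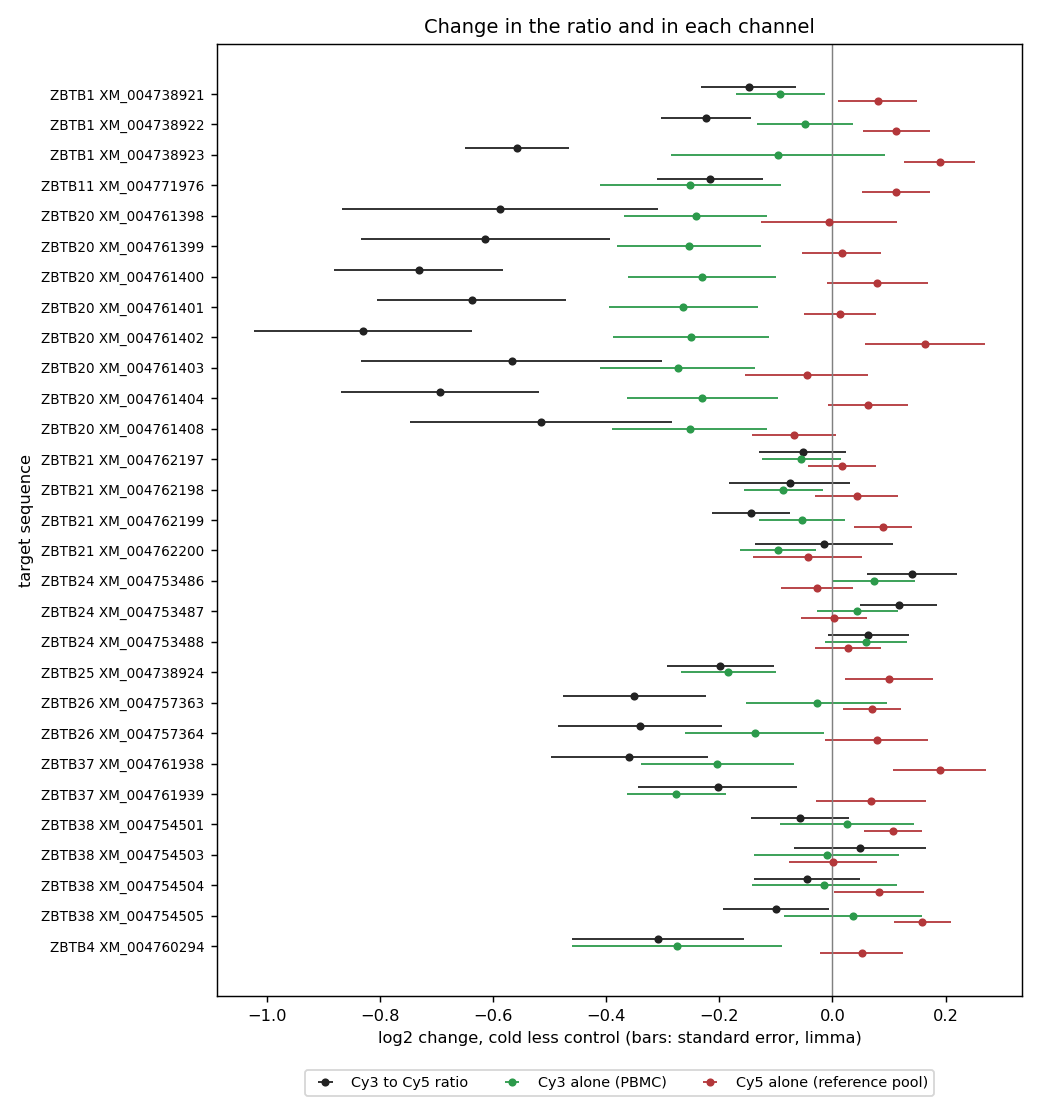
Log2 change, cold less control (x axis), of the 29 ZBTB target sequences (y axis) in the ratio (black), in Cy3 alone (green) and in Cy5 alone (red), with bars for the limma standard error over 6 control and 4 cold arrays. The ratio changes of ZBTB20 (−0.83 to −0.52) lie left of its Cy3 changes (−0.27 to −0.23), and for XM_004738923 of ZBTB1 the ratio stands at −0.56, Cy3 at −0.10 and Cy5 at 0.19.

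The brightness of the reference channel moved with the group. The median Cy5 intensity of an array was 44 to 80 in the control and 48 to 152 in the cold group (exact permutation p = 0.0524 on the log2 scale). Spots above background made up 27.0 to 64.0% in Cy5 and 50.4 to 63.5% in Cy3. With the log2 Cy5 brightness as a covariate, an alternative chosen after the data had been seen, the change of XM_004738923 was −0.43 (limma adjusted p = 0.294), and this was the 1 ZBTB sequence called at 0.01, where 2.68% of all sequences were. Under the same covariate the 8 sequences of ZBTB20 changed by −0.50 to −0.0339, with none called, and those of ZBTB26 by −0.0683 and −0.0148. Without cold replicates 1 and 3, the brightest arrays in Cy5, 2 ZBTB sequences were called, against 2.77% of all sequences: XM_004738923 at −0.54 (limma adjusted p = 0.284) and XM_004761400 at −0.61 (limma adjusted p = 0.356). The 8 ZBTB20 sequences then ranged from −0.78 to −0.28.

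Leaving out control replicate 5 or cold replicate 2 took ZBTB sequences past the adjusted threshold. Without control replicate 5 the adjusted p of XM_004738923 was 0.0273 and that of XM_004761400 was 0.0345, and 8 ZBTB sequences were called at 0.01, while the share called over all sequences rose to 12.6% and 586 sequences passed the adjusted threshold. Without cold replicate 2 the same adjusted p-values were 0.0283 and 0.0439, with 8 called as well, against 12.8% of all sequences, of which 1502 passed the adjusted threshold. With the filter set to Cy3 above background on all arrays, XM_004738923 had an adjusted p of 0.0454, and 128 sequences passed. In the deposited log2 table it was not called at 0.01 (−0.40, limma adjusted p = 0.245). The 2 sequences kept their direction without any 1 array, at −0.60 to −0.52 and −0.81 to −0.63. Within slide position 1 (4 control and 2 cold arrays) they changed by −0.64 and −0.93, and within position 2 (2 control and 2 cold arrays) by −0.43 (limma adjusted p = 0.724) and −0.46 (limma adjusted p = 0.753). The 8 ZBTB20 sequences lay between −0.94 and −0.65 within position 1 and between −0.69 and −0.11 within position 2. With processed intensities they lay between −0.54 and −0.29, and with median-centred arrays between −1.31 and −1.11.

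Other genes of the family were set beside the 10 from a list of 39 BTB zinc finger genes, of which 22 were on the array by symbol and 19 were measured. Taking 1 sequence per gene, 12 of the 19 were lower and 7 higher, with a median change of −0.10 and none called at 0.01. The 10 ZBTB genes, taken in the same way, had 9 lower, 1 higher and a median of −0.22, and the 1 called of 10 stands near the 8.6% called over all sequences. In Cy3 alone the medians were −0.14 for both lists, with 14 of 19 and 8 of 10 lower. In that channel 3 of the 19 other genes were called at 0.01, all lower, and none of the 10 by the sequence taken: ZBTB9 (−0.51), ZBTB40 (−0.39) and ZNF131 (−0.34), named after their values had been seen. Over all sequences 9.95% were called in Cy3. The lowest change of the other genes was that of HIC1, a growth-suppressing repressor (−0.59, SE 0.20, limma adjusted p = 0.125), and the highest that of BCL6 (0.48, SE 0.19, limma adjusted p = 0.154). The groups overlapped for both.

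Among the proteins that BTB zinc finger factors recruit, 11 of 26 listed corepressor genes were measured. Of these 4 were lower and 7 higher, none was called at 0.01, and the median change was 0.02. HDAC7, a histone deacetylase of lymphocytes, changed by −0.40 (SE 0.18, limma adjusted p = 0.202) and CTBP2, a corepressor, by 0.43 (SE 0.16, limma adjusted p = 0.14). In Cy3 alone these were called at 0.01, at −0.50 and 0.49, and no other of the 11, where 9.95% of all sequences were called. Of 17 listed genes that bind or maintain methylated DNA, 7 were measured, with 4 lower and 3 higher. DNMT3A, a DNA methyltransferase, was the one called, where 8.6% of all sequences were. It ran from 0.11 to 0.39 in the control and from −0.62 to 0.11 in the cold group. This was a change of −0.52 (SE 0.13, limma adjusted p = 0.0769) without overlap, as for 2.15% of all sequences in this direction.

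Markers of blood cell types moved with the group as well. At an unadjusted limma p of 0.01, 8.6% of all sequences were called in the ratio and 9.95% in Cy3. The mean of 9 measured T cell markers (of 12 listed) was 0.06 to 0.37 on the control and −0.86 to 0.06 on the cold arrays, with 8 of 9 lower and LCK, a kinase of the T cell receptor, called (−0.75, limma adjusted p = 0.0756). The lowest of these values was that of cold replicate 3. The other cold arrays, at −0.0461, 0.0196 and 0.0587, also lay below the lowest control array, at 0.0647. Without cold replicate 3 the changes of XM_004738923 and XM_004761400 were −0.58 and −0.75. As the T cell difference remained, this does not bear on its part in them. The mean of 7 neutrophil markers (of 12 listed) was 0.51 to 1.22 in the control and 1.53 to 1.93 in the cold group. All 7 were higher, with S100A8 (1.10), S100A9 (1.15) and MPO (1.41) called. CXCR2 (0.83), S100A12 (0.81), CSF3R (0.42) and MMP9 (0.19) were not called. Whether these rises came from neutrophils or from monocytes was not tested. Monocyte markers (7 of 10 measured) ran from −0.02 to 0.45 and from 0.37 to 1.08, with 6 of 7 higher, CD14 (0.66) and VCAN (1.31) called and CD163 at −0.63 (in Cy3 alone it was at 0.49, and all 7 were higher), and platelet markers (7 of 10 measured) from −0.10 to 1.43 and from 0.81 to 1.71, with GP9 (0.87) among those called. Erythroid markers (5 of 10 measured) ran from −0.05 to 0.82 and from −0.79 to −0.18, with 4 lower and HBM (−2.57) called. The 1 higher was SPTB (0.14). In Cy3 alone 2 erythroid markers were called lower, and SPTB was called higher (0.65). B cell markers (8 of 10 measured) ran from −0.06 to 1.20 and from 0.47 to 0.88, and NK and cytotoxic markers (5 of 10 measured) from 0.28 to 0.85 and from 0.17 to 1.20, with none called. In Cy3 alone all 8 B cell markers were lower, with a median of −0.49 where the ratio had −0.07, and none was called. All 9 T cell markers were lower in Cy3 as well, 6 of them called, with a median of −0.70. The part of these cell type markers and of the Cy5 brightness in the ZBTB differences was not tested.

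**Figure D4:**
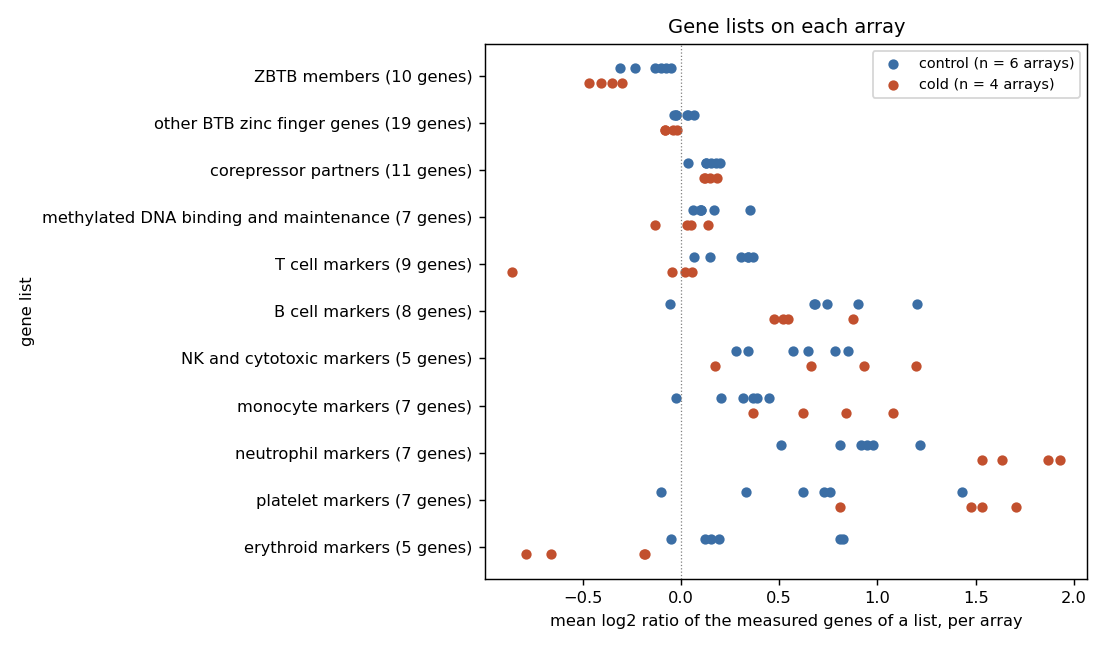
Mean log2 ratio of the measured genes of a list (x axis) for 11 gene lists (y axis), 1 point per array, control in blue (n = 6) and cold in red (n = 4). The ZBTB genes lie at −0.31 to −0.05 in the control and −0.47 to −0.30 in the cold group, and the neutrophil markers at 0.51 to 1.22 and 1.53 to 1.93.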

How the data were processed

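PBMC RNA of 6 control and 4 cold-exposed ferrets was measured on 10 custom Agilent 2-colour arrays. Each lay on its own slide, so that slide and ferret cannot be told apart, and an alternative fit used the position within the slide. The authors deposited the scanner output, with the median spot and background intensity of both channels and flags for spots above background or outlying. They also deposited 1 log2 value per sequence and array, on a scale whose array medians were 9.25 to 9.29 over the tested sequences. The steps that set its constants stayed unknown, and it served as an alternative. Background was corrected by normexp (offset 50) and ratios were normalised by loess (span 0.3, 4 iterations) in limma 3.58.1 under R 4.3.3, without control spots and then without outlier spots. Spots were averaged per probe, and kept probes per target sequence. Keeping a probe required Cy3 well above background in a spot share of 0.5 or more on 4 or more arrays. The number of arrays limits the precision.

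RefSeq's annotation of the ferret assembly ASM1176430v1.1 gave symbols for 21104 of the 45328 sequences, 12918 symbols in all. No probe, promoter or protein sequences were used here. Groups were compared with limma (lmFit, eBayes) and Benjamini-Hochberg adjustment over 32400 sequences, where the methods used a t-test per sequence. Single values also had an exact two-sided permutation test over the 210 splits. The labels give each array as a replicate of its group. P-values measure the spread between arrays, in which ferret, slide, labelling and Cy5 brightness cannot be told apart. Named are every ZBTB sequence, from the other lists the genes with an unadjusted p under 0.01 and otherwise the highest and lowest change (for cell type markers, those called), and for ZBTB1 and ZBTB20 the 3 genes with the highest correlation. HELLS, ZBTB6, CD163, SPTB, the neutrophil markers not called and the comparison of the ZBTB1 sequences were added after their values had been seen. The members and lists were chosen with earlier results of these data known. The procedure was tested on simulated data with independent noise per sequence. These held larger changes than those of the ZBTB sequences and no difference in Cy5 brightness, so they do not cover the setting of these arrays. Alternatives covered background, normalisation, filter, averaging, test, slide position, replicate block, single arrays left out and Cy5 brightness. Adipose tissue, liver and RT-qPCR were not analysed here. One single-gene marker result is not reported here.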

Additional observations from a re-analysis of the deposited data

Results flagged for a closer look

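Each group of each ZBTB sequence, 58 in all, was examined for 1 array far from the others of its group, and 2 stood out by Dixon's criterion at the 95% level, which chance meets in about 1 in 20 groups. On XM_004761398 of ZBTB20, cold replicate 2 read −1.35, while the other cold arrays lay between −2.31 and −2.18. On XM_004762198 of ZBTB21, control replicate 5 read −0.45, while the other control arrays lay between −0.06 and 0.08. The reason for either reading was not tested.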

How the results depend on the processing

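ZBTB20 was lower in all 8 sequences, ZBTB24 higher in all 3 and XM_004738923 of ZBTB1 lower under every alternative run, though XM_004738923 was not called at 0.01 in Cy3 alone, in the deposited table or within slide position 2. The number of ZBTB sequences called at an unadjusted p of 0.01 (5 of 29) was 1 in Cy3 alone, 3 in the deposited log2 table with the methods' t-test, 0 within slide position 2, 1 with the Cy5 brightness as a covariate, 2 without the 2 arrays of brightest Cy5 and 2 of 10 with the gene as the feature. Leaving out 1 array gave 4 to 8. Both settings on Cy5 were chosen after the data had been seen. Over all sequences the count of 2785 was 1842 with processed intensities, 1520 with arrays centred on their median, 1432 in the deposited table, 1039 there with the t-test, 1285 and 545 within slide positions 1 and 2, 868 with the covariate, 898 without the brightest arrays, and 1564 to 4141 with 1 array left out. The count at an adjusted p of 0.05 (0 in limma, with 2785 at 0.01 and 7967 at 0.05 unadjusted) was 925 in Cy3 alone, 128 with Cy3 above background on all arrays, 6 with array weights and 0 to 1502 with 1 array left out. Cold replicate 2 left out gave 1502, control replicate 5 left out 586 and cold replicate 1 left out 14. The cause of these differences was not tested.

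Changes of sign were mostly those of ZBTB21 and ZBTB38, with changes near 0, and in the deposited table also those of ZBTB26 and ZBTB37. In Cy3 alone, ZBTB38 read 0.0259 (XM_004754501), −0.0102 (XM_004754503) and 0.0363 (XM_004754505). With the covariate, XM_004754503 read −0.0883, and ZBTB21 read 0.0163 (XM_004762197), 0.0799 (XM_004762198) and 0.0741 (XM_004762200). In the deposited table, with limma and with the t-test, the values were 0.0254 (ZBTB1 XM_004738921), −0.20 (XM_004754503), 0.13 and 0.0852 (ZBTB26), and 0.37 and 0.44 (ZBTB37). XM_004754503 read −0.60 with median-centred arrays, −0.059 with processed intensities, −0.0283 within position 2 and −0.0194 without the brightest arrays. XM_004762200 read 0.0174 by the median over probes, 0.0096 without background subtraction, 0.0362 with slide position as a block and 0.19 within position 2. XM_004754504 read 0.001 by the median over probes and 0.0375 within position 1, and ZBTB37 XM_004761939 read 0.0687 within position 2. With 1 array left out, XM_004762200 ranged from −0.0712 to 0.0318 and XM_004754503 from −0.0141 to 0.115.

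The replicate numbers did not pair the arrays (correlations of same-numbered arrays −0.29, 0.55, 0.09 and −0.19). With the replicate number as a block, 7 of 29 ZBTB sequences and 3068 of all sequences were called. Cy5 was above background on 0 or 1 of 6 control arrays for ZBTB37, 1 or 2 for ZBTB24 and 2 or 3 for ZBTB1 and ZBTB26, which limits the precision of their ratios.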

Other observations

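The genes whose log2 ratio ran most like that of ZBTB1 (by XM_004738922) over the 10 arrays were LLPH (r = 0.97), NEDD4 (r = 0.96) and ZNF565 (r = 0.95). Over the 6 control arrays alone, which hold no difference between groups, the same pairs had r = 0.94, 0.89 and 0.80. For ZBTB20 (by XM_004761404) they were HSPB11 (r = 0.97), LOC101681752 (r = 0.96) and EHBP1 (r = 0.96), with r = 0.96, 0.95 and 0.97 over the control arrays. Their changes were −0.63 to −0.15, a direction that the choice by correlation over both groups fixes. These correlations describe arrays that share a reference pool and its brightness. They were the highest among those tested sequences that have a symbol, with 1 sequence taken per symbol.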
